A study of Homo sapiens with 8 samples.

Results

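The WNT5A and ERC2 locus is the stretch of chromosome 3 that holds the WNT5A and ERC2 gene bodies, the sequence between them and 100 kb on either side. In hg38 it runs from 55365715 to 56569095, a length of 1203 kb. All H3K27ac peaks in this window were taken from 6 peak lists and merged where they overlapped or touched, which gave 33 intervals of the 143733 in the whole data set. The locus was picked because 1 interval in an ERC2 intron had the most negative genotype shift of the 34864 intervals that entered the genome-wide fit. Its CREBBP-KO against WT values are therefore given as a description, without a test.

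H3K27ac is acetylation of histone H3 on lysine 27, a mark of active promoters and active enhancers. It is deposited by CREBBP and its paralogue EP300. Enhancers can lie in introns of one gene and act on the promoter of another, so a mark in an intron does not by itself name its target. WNT5A encodes a secreted ligand that acts mainly through noncanonical Wnt signalling, by way of Frizzled proteins and the receptor tyrosine kinase-like proteins ROR1, ROR2 and RYK, and it is known for roles in cell polarity and migration. In the gut it is produced largely by mesenchymal cells. ERC2 encodes a scaffold protein of the presynaptic active zone, where neurotransmitter vesicles fuse, and is best known from neurons.

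The cells were HCECs (line HCEC-1CT), human colonic epithelial cells immortalized with CDK4 and hTERT, carrying a doxycycline-inducible Cas9. The WT group held 3 H3K27ac libraries and the CREBBP-KO group, named CBP KO in the labels, held 3, and the labels number them without saying whether they came from separate cultures. According to the study's methods the knockout cells were monoclonal, though another passage describes several clones pooled per target beside matched parental subclones. Both genotypes share the immortalization and the Cas9 transgene, and 1 input library per genotype was not analysed here.

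The lists held 86163 to 93567 peaks in WT and 99008 to 111697 in CREBBP-KO libraries, with a median fold of 4.37 ± 0.072 (SD, n = 3) and 4.06 ± 0.0443 (SD, n = 3). They hold no read counts, so the depth of each library is unknown. The promoter of CREBBP carried a peak in every library, at folds of 18.0, 21.0 and 16.1 in WT and 24.1, 25.9 and 28.9 in CREBBP-KO libraries, which does not check the knockout, since acetylation of the promoter says nothing about an edit within the gene. Of 14 colonic epithelial marker genes, 9 had no promoter peak in any library, among them CDH1, KRT19, CDX1, CDX2, VIL1 and HNF4A. The other 5 had peaks of varied pattern. EPCAM had a weak one (2.47 ± 0.334 in WT, 3.42 ± 0.467 in CREBBP-KO; SD, n = 3), and the goblet cell mucin MUC2 had one at 4.58 ± 0.161 in WT and 10.0 ± 1.44 in CREBBP-KO libraries (SD, n = 3). KRT8 and KRT18 shared an interval with folds of 4.56, 4.97 and 3.60 in WT and 4.27 and 3.37 in 2 of 3 CREBBP-KO libraries, and LGALS4 had a peak in 3 WT and 0 CREBBP-KO libraries. All 11 mesenchymal marker genes, VIM and COL1A1 included, had a promoter peak in all 6 libraries, and 4 of them were higher in CREBBP-KO libraries in the genome-wide fit, in which 26.7% of all promoter intervals were higher. The same fit called MUC2, the 1 colonic marker that entered it, higher. MUC2 entered through its CREBBP-KO folds alone. Of 7 immune and endothelial markers 5 had no peak. CD68 had folds of 20.5 ± 2.91 in WT and 31.9 ± 4.38 in CREBBP-KO libraries (SD, n = 3) and was called higher. PECAM1 lacked a peak in the third WT library and was not tested. Of 5 neuronal markers 2 had none. TUBB3 stood at 10.9 ± 0.528 and 15.3 ± 2.19 and was not called. MAP2 stood at 4.01 ± 0.341 and 6.94 ± 0.626 (SD, n = 3). It was called higher, having entered through its CREBBP-KO folds alone. SYP lacked a peak in some libraries and was not tested. The part of these marker patterns in the values at WNT5A and ERC2 was not tested.

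Height is given in a pair of measures. The deposited fold is the height of a peak over its local background. Its percentile is its place among all peaks of its own list, from 0 for the lowest to 100 for the highest, with the highest peak of an interval standing for it. Intervals are named by the distance of their summit from the canonical WNT5A start, at position 55487306. WNT5A and ERC2 both lie on the minus strand, so positive distances run upstream of WNT5A and then through ERC2 from its 3′ end to its 5′ end.

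Sequences are shown first, in hg38 on the plus strand, for the shared intervals with the lowest and the highest fitted shift and for the interval with peaks in WT libraries only, because later values refer to them. The 200 bases around the summit of the +398.1 kb interval (chr3:55885327-55885526), by which the locus was chosen, of the +405.7 kb interval beside it (chr3:55892884-55893083) and of the +644.9 kb interval (chr3:56132061-56132260) read as follows. Capitals mark GGAATG, the core of the TEAD motif, or its reverse complement, and would mark TGANTCA, the AP-1 motif, which none of the 3 windows holds.
+398.1 kb summit: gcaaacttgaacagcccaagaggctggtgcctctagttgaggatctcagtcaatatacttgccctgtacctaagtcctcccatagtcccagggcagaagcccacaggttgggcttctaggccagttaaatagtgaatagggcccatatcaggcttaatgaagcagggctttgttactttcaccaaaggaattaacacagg
+405.7 kb summit: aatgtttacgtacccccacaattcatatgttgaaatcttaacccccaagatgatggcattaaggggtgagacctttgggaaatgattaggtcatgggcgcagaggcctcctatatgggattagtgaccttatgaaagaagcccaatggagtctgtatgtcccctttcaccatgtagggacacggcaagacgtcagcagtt
+644.9 kb summit: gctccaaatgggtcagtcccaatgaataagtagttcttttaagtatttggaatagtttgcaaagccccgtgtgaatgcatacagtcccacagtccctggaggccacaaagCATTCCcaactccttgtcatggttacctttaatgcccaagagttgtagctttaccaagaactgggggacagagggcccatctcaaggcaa

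Away from their summits, the +398.1 kb and +644.9 kb intervals did hold AP-1 matches. The +398.1 kb interval had 2 along its 1588 bases, at chr3:55885026-55885085 and chr3:55885906-55885965, and the +644.9 kb interval had 4 along its 3085 bases, of which 3 stand together at chr3:56132319-56132438. Capitals mark TGANTCA. These windows were chosen after the values were seen. Such matches were not particular to these intervals. Every shared interval of the locus held at least 1, except the -14.7, +24.7 and +309.4 kb intervals and the CCDC66 promoter interval. The +638.5 kb interval, where the genotypes overlapped, held 2 along its 2067 bases.
+398.1 kb, AP-1 match on the WNT5A side of the summit: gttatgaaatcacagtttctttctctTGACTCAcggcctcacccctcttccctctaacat
+398.1 kb, AP-1 match on the ERC2 start side of the summit: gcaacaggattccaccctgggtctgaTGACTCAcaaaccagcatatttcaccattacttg
+644.9 kb, group of 3 AP-1 matches: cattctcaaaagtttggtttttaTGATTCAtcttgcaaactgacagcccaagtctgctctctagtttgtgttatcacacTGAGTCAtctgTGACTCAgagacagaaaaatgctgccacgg

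The promoters differ in base content. From the RefSeq promoter table (GRCh38.p14), the 250 bases before the ERC2 start at 56468467 (chr3:56468468-56468717, minus strand) hold 37 CpG, with 81.2% GC. Of the sequence before the canonical WNT5A start, the 158 bases outside transcribed leader sequence (chr3:55487399-55487556, minus strand) hold 6 CpG, and the 255 bases before the inner WNT5A start (chr3:55481394-55481648, minus strand) hold 19. The median over 35116 RefSeq promoters is 11 CpG and 58% GC in 250 bases. Capitals mark CpG.
ERC2 promoter: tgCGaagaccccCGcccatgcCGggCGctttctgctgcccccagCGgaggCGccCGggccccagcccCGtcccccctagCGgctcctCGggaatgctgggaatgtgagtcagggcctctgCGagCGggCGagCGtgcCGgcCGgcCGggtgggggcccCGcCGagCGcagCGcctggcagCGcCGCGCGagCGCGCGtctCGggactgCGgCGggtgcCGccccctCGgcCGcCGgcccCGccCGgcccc
WNT5A promoter, canonical start: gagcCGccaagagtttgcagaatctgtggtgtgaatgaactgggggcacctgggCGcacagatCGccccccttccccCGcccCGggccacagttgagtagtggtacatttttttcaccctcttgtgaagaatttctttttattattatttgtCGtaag
WNT5A promoter, inner start: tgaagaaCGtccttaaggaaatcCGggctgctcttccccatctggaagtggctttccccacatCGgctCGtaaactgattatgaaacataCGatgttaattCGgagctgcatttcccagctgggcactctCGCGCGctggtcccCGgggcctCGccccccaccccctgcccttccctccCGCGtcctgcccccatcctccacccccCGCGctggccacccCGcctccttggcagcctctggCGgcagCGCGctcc

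Peaks were crowded over WNT5A and sparse over ERC2. The WNT5A body (ENSG00000114251.15, chr3:55465715-55490539, 24.8 kb) was covered by peaks over 74.8%, 74.8% and 77.7% of its length in WT libraries and over 68.5%, 70.1% and 70.8% in CREBBP-KO libraries. The means were 75.8% ± 1.70 and 69.8% ± 1.18 (SD, n = 3), and the ranges did not overlap. In every library this placed WNT5A between the 96.3th and the 97.6th percentile of 20033 protein-coding genes, whose median gene was covered over 6.01% to 7.28%. The ERC2 body (ENSG00000187672.15, chr3:55508311-56469095, 960.8 kb) was covered over 1.39% ± 0.188 in WT and 1.19% ± 0.0618 in CREBBP-KO libraries (SD, n = 3), with overlapping ranges.

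Of the 33 intervals, 15 had a peak in all 6 libraries (45.5%, against 36.3% of all intervals). Another 10 had a peak in 1 library only (30.3%, against 32.8%), 3 of them in a WT and 7 in a CREBBP-KO library, with folds from 2.48 to 3.78. The remaining 8 had a peak in 2 to 5 libraries. All 4 intervals of the WNT5A body and 8 of the 17 of the ERC2 body were shared. These bodies take up 24.8 and 960.8 kb of the 1203 kb window, so most of its sequence lies in them. The 3′ flank of WNT5A held 2 shared intervals of 9, and the 17.8 kb between the genes held none of 2. Each interval was placed by its midpoint.

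The number of locus peaks was 22, 25 and 21 in WT and 25, 21 and 23 in CREBBP-KO libraries, or 22.7 ± 2.08 and 23 ± 2.0 (SD, n = 3). The sequence they covered was 36.3 ± 2.08 kb and 35.0 ± 1.04 kb (SD, n = 3). Neither differed by more than the spread between libraries. The CREBBP-KO lists as a whole were longer, and per 10000 peaks of the list the locus held 2.49 ± 0.177 peaks in WT and 2.19 ± 0.168 in CREBBP-KO libraries (SD, n = 3), without overlap. With equal list lengths the CREBBP-KO minus WT difference was -3.67 peaks and -3348 bases.

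**Figure D1:**
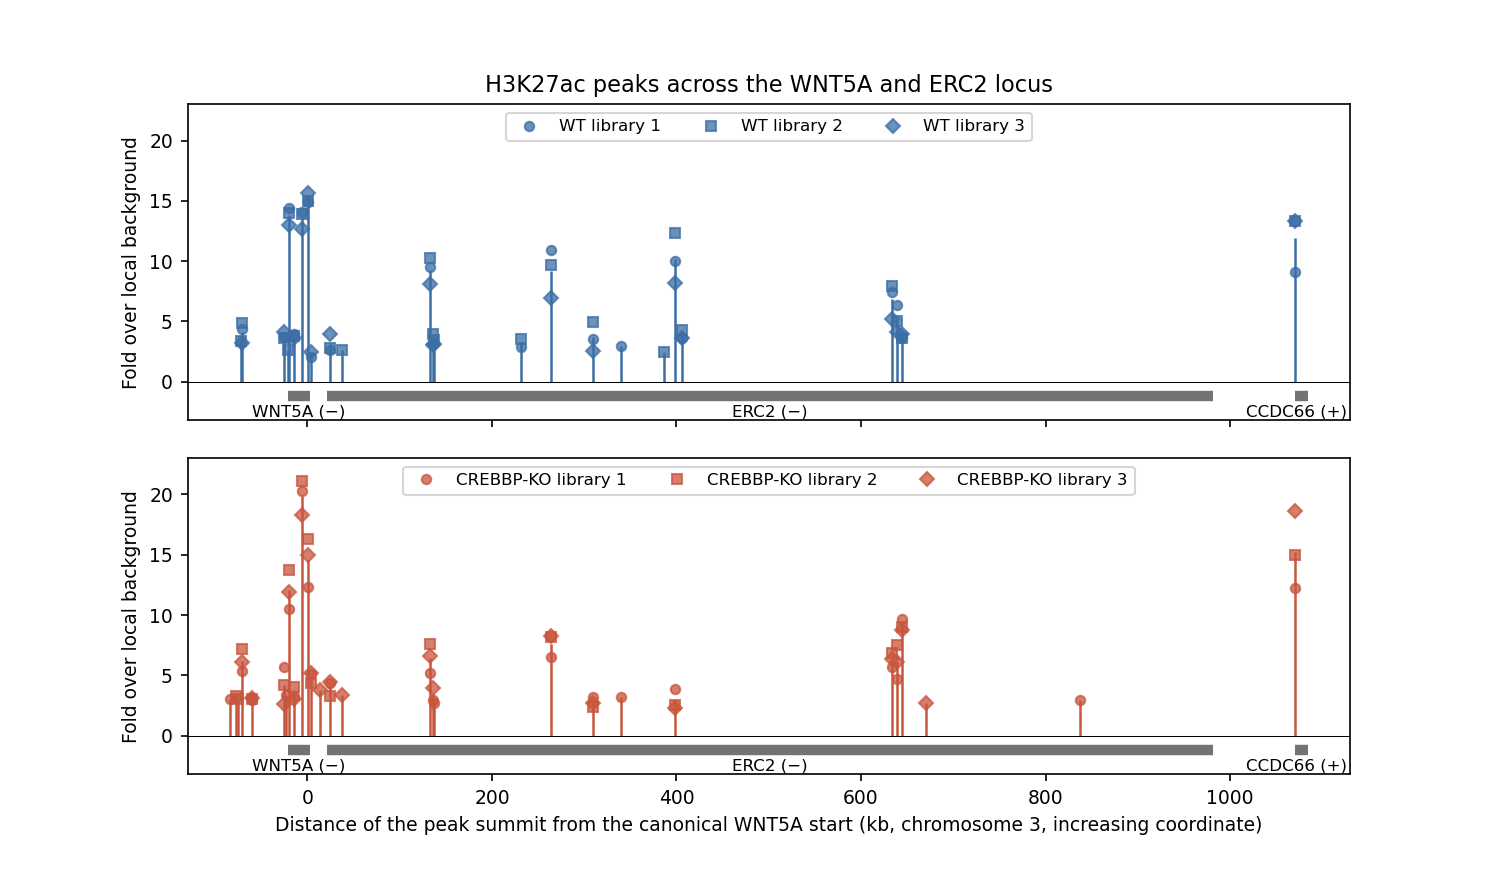
Deposited fold over local background (y axis) of each locus interval against the distance of its summit from the canonical WNT5A start in kb (x axis), for the 3 WT libraries (top) and the 3 CREBBP-KO libraries (bottom), with each library a symbol, vertical lines at the mean of the libraries with a peak and grey bars for gene bodies on their strands. The +398.1 kb interval stands at 10.2 in WT and 2.91 in CREBBP-KO libraries, the +644.9 kb interval at 3.73 and 9.14, and no interval lies at the 5′ end of ERC2.

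The WNT5A promoter region was among the more strongly acetylated parts of the genome in both genotypes. The interval over the canonical start (chr3:55484045-55489235, coding exon and leader) had its summit at +0.9 kb, and the interval over the inner starts at 55481393 and 55481196 (chr3:55475021-55483220) had its summit at -5.5 kb. The first had folds of 14.9, 15.0 and 15.6 in WT and 12.3, 16.3 and 15.0 in CREBBP-KO libraries. These ranges overlapped, and the means were 15.2 ± 0.415 and 14.5 ± 2.02 (SD, n = 3).

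The inner-start interval differed from it. Its folds were 14.1, 13.9 and 12.7 in WT and 20.3, 21.1 and 18.3 in CREBBP-KO libraries. All 3 CREBBP-KO values lay above all 3 WT values, and the mean rank was the 91.7th ± 1.74 percentile in WT and the 96.7th ± 1.32 in CREBBP-KO libraries (SD, n = 3). The ratio of mean folds was 1.47. When ranked by −log10 p, the CREBBP-KO minus WT percentile difference of this interval was 3.05, beside 4.95 by fold. Its highest peaks had summits up to 1112 bases apart between libraries, so the heights need not come from the same place. Its called width was smaller in the mean, at 7.76 ± 0.214 kb in WT and 6.96 ± 0.506 kb in CREBBP-KO libraries (SD, n = 3), with overlapping ranges.

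The 200 bases at the summit of the canonical-start interval (chr3:55488109-55488308, plus strand) are shown because they are the most CpG-rich of the 15 shared summits, with 30 CpG against a median of 2. Capitals mark CpG.
+0.9 kb summit: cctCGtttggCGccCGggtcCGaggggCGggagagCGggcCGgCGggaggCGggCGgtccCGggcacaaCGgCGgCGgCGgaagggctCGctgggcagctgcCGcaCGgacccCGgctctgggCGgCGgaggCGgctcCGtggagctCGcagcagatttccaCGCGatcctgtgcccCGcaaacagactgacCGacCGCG

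Within the rest of the WNT5A body, the interval at the 3′ end (chr3:55466034-55469881, summit -20.3 kb, in the 3′ untranslated region) was nearly as high as the promoter. Its folds were 14.5, 14.0 and 13.0 in WT and 10.5, 13.7 and 11.9 in CREBBP-KO libraries, and the ranges overlapped. The interval over a coding exon at -14.7 kb (chr3:55470842-55474451) was weak, with folds from 3.07 to 4.06 over the 6 libraries. From -20.3 kb to the start, the 4 intervals lay within 23.2 kb.

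At the 5′ end of WNT5A, a weak interval in WT cells was higher in CREBBP-KO cells. It overlapped the edge of the gene body and lay 0.4 kb from a further WNT5A start at 55489945. This interval (chr3:55490324-55492123, summit +4.3 kb) had a fold of 2.05 in the first and 2.50 in the third WT library and no peak in the second. The CREBBP-KO folds were 5.10, 4.38 and 5.23. Since a list with no peak gives no height, no WT mean is given. The WT ranks were the 0.078th and the 3.89th percentile, and the CREBBP-KO ranks averaged 60.4 ± 5.39 (SD, n = 3).

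Downstream of WNT5A, 1 interval of the 3′ flank was higher in all CREBBP-KO libraries and 1 had a peak in these alone. The -70.6 kb interval (chr3:55415589-55417649) had folds of 4.36, 4.88 and 3.18 in WT and 5.33, 7.22 and 6.10 in CREBBP-KO libraries, with no overlap. The -60.5 kb interval (chr3:55426348-55427315) had no peak in any WT library and folds of 2.95, 3.07 and 3.15 in CREBBP-KO libraries. It was the 1 locus interval with a peak in 0 WT and 3 CREBBP-KO libraries, a pattern of 2.66% of all merged intervals. The -25.5 kb interval (chr3:55461589-55462644) showed no separation, at 3.73, 3.67 and 4.15 in WT and 5.73, 4.20 and 2.61 in CREBBP-KO libraries.

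ERC2 itself had no promoter peak. No library had a peak within 1 kb of either ERC2 start (56468467 and 56469095), and the nearest interval of the locus lay 87.9 kb from the canonical start, at the CCDC66 start. The gap without any interval spanned 232 kb, from 56324309 to 56556389. The CCDC66 promoter interval (chr3:56556389-56558402) had folds of 9.14, 13.3 and 13.3 in WT and 12.3, 14.9 and 18.6 in CREBBP-KO libraries, which overlapped. CCDC66 encodes a coiled-coil protein of the centrosome and cilia.

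By fitted shift, the ERC2 introns held the lowest and the highest of the 15 shared intervals. The +398.1 kb interval (chr3:55884583-55886170, intron) was high in WT cells and near the bottom of the list in 2 of 3 CREBBP-KO libraries. Its folds were 10.0, 12.3 and 8.23 in WT and 3.91, 2.54 and 2.27 in CREBBP-KO libraries. The means were 10.2 ± 2.06 and 2.91 ± 0.883 (SD, n = 3), a ratio of WT to CREBBP-KO of 3.51. The WT percentiles were 83.9, 90.1 and 77.0 and the CREBBP-KO percentiles 47.2, 5.22 and 1.82, so that the first CREBBP-KO library kept more of the peak than the others. The called peak spanned 1193, 1588 and 1114 bases in WT and 504, 513 and 323 bases in CREBBP-KO libraries. These values chose the locus.

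An interval 6.1 kb further on was also lower. The +405.7 kb interval (chr3:55892277-55893951, intron) had folds of 3.65, 4.29 and 3.61 in WT and no peak in any CREBBP-KO library. It was the 1 locus interval with a peak in 3 WT and 0 CREBBP-KO libraries, a pattern of 1.08% of all merged intervals. A missing peak says that no enrichment passed the threshold of the caller, not that the mark was absent. As printed above, its summit window holds neither of the 2 motifs, and its whole length holds 2 TEAD matches and 0 AP-1 matches.

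The +644.9 kb interval (chr3:56131377-56134461, intron) was the opposite case. Its folds were 3.65, 3.60 and 3.94 in WT and 9.65, 9.01 and 8.75 in CREBBP-KO libraries. The means were 3.73 ± 0.181 and 9.14 ± 0.463 (SD, n = 3), a ratio of 2.45, and both groups were tight. The mean rank was the 38.1th ± 2.85 percentile in WT and the 81.9th ± 2.66 in CREBBP-KO libraries (SD, n = 3). Called bases were 1885 in 3 peaks, 1583 in 2 peaks and 1760 in 1 peak in WT libraries. In CREBBP-KO libraries they were 2774, 2774 and 2686, each in 1 peak. Summits of the highest peaks lay up to 1929 bases apart between libraries, so the heights need not come from the same place in the interval.

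The +644.9 kb interval closes a group of 3 intervals that spans 14.7 kb and lies 226 kb beyond the +405.7 kb interval. The other members did not separate the genotypes. The +633.1 kb interval (chr3:56119738-56120957) had folds of 7.43, 7.91 and 5.17 in WT and 5.66, 6.82 and 6.36 in CREBBP-KO libraries. The +638.5 kb interval (chr3:56125006-56127072) had folds of 6.35, 5.03 and 4.12 in WT and 4.71, 7.50 and 6.10 in CREBBP-KO libraries. In WT cells the +644.9 kb interval had the lowest mean of the 3, and in CREBBP-KO cells the highest. Its summit lies 247 kb from that of the +398.1 kb interval.

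Between the 3′ end of ERC2 and the +398.1 kb interval lay 4 further shared intronic intervals, of which 3 were lower and 1 (+24.7 kb) higher in mean fold in CREBBP-KO libraries. The +133.4 kb interval (chr3:55619663-55621958) had folds of 9.52, 10.2 and 8.12 in WT and 5.18, 7.62 and 6.62 in CREBBP-KO libraries, which did not overlap. Its percentiles did overlap, by the third WT (76.5) and the second CREBBP-KO library (76.8). The +263.8 kb interval (chr3:55749228-55752175) had folds of 10.9, 9.70 and 6.94 in WT and 6.50, 8.18 and 8.23 in CREBBP-KO libraries. Its heights overlapped and its widths did not, at 2882, 2138 and 2189 bases in WT and 1118, 1423 and 1229 in CREBBP-KO libraries.

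The other 2 of the 4 were weak. The +24.7 kb interval (chr3:55511569-55513426) had folds of 2.59, 2.82 and 3.93 in WT and 4.37, 3.28 and 4.47 in CREBBP-KO libraries. The +309.4 kb interval (chr3:55796212-55797423) had folds of 3.55, 4.96 and 2.57 in WT and 3.17, 2.41 and 2.74 in CREBBP-KO libraries. Both overlapped. At this height the percentile moves steeply with the fold, and the WT percentiles of the +309.4 kb interval ran from 4.88 to 57.6.

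**Figure D2:**
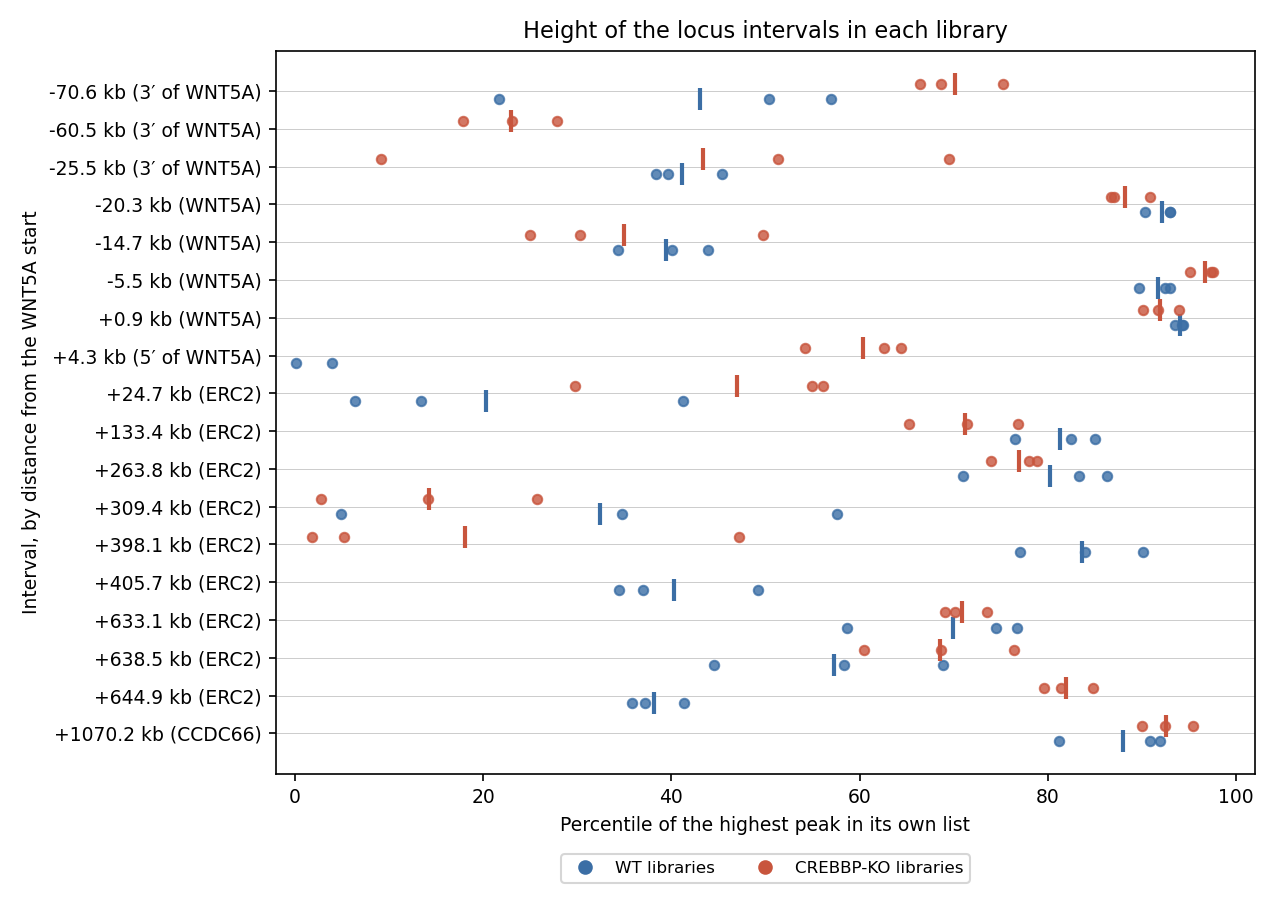
Percentile of the highest peak in its own list (x axis) for the 15 shared locus intervals and the 3 intervals with a peak in all libraries of 1 genotype but not of the other (y axis, by distance of the summit from the canonical WNT5A start), with points for single libraries and ticks for the mean of 3. The genotypes separate at -70.6, -5.5, +398.1 and +644.9 kb among the shared intervals and overlap at the other 11.

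In bulk chromatin, fewer cells with a mark and less of the mark per cell cannot be told apart. By percentile, 1 of the 15 shared intervals was lower in all CREBBP-KO than in all WT libraries (+398.1 kb) and 3 were higher (-70.6, -5.5 and +644.9 kb). Without the third WT library 6 were lower, without the second CREBBP-KO library 5 and without the first WT library 2. Of all 52187 shared intervals, 12.1% were lower without overlap and 28.9% higher. Percentiles of whole lists rise for shared intervals in the longer CREBBP-KO lists, so the split was also made on ranks among the shared intervals alone. This gave 4 lower (adding -20.3, +0.9 and +133.4 kb) and the same 3 higher, against 19.3% and 20.3% of all. By the deposited fold 2 were lower and 3 higher, against 14.2% and 26.6%. By called bases 2 were lower (+263.8 and +398.1 kb) and 1 higher (+644.9 kb), against 13.7% and 16.4%. Because the locus was chosen by this contrast, nothing is read from these shares.

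**Figure D3:**
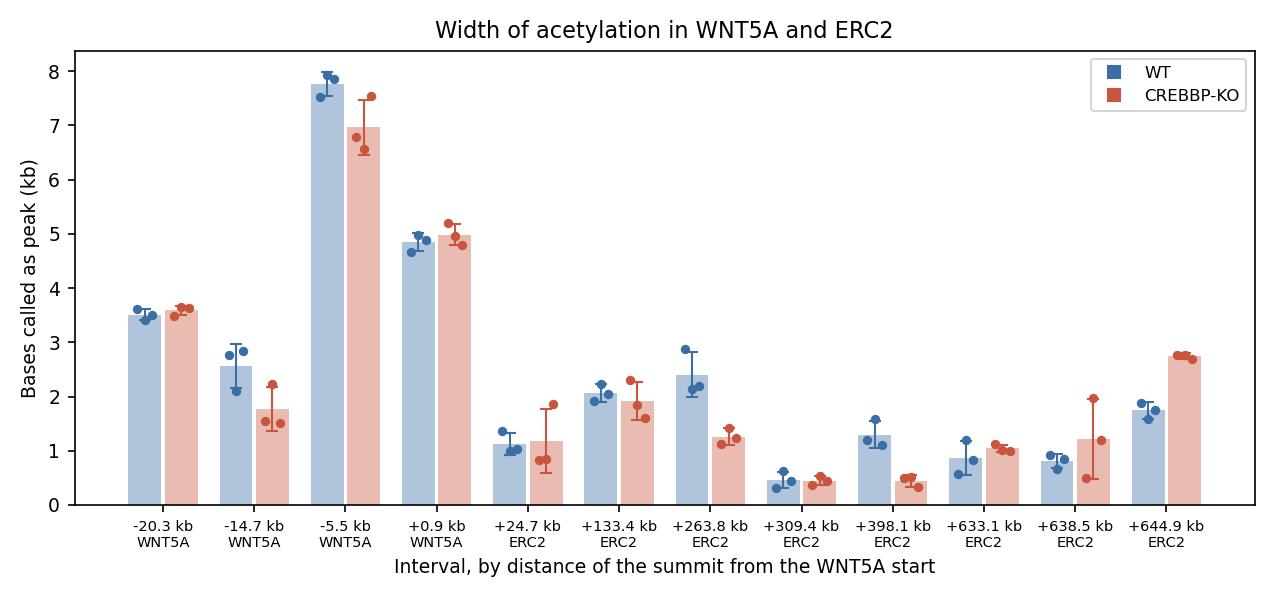
Bases called as peak, in kb (y axis), for the 12 shared intervals of the WNT5A and ERC2 bodies (x axis), with bars for the mean of 3 libraries, error bars for the SD and points for single libraries. The +398.1 kb interval stands at 1.30 kb in WT and 0.447 kb in CREBBP-KO libraries, the +263.8 kb interval at 2.40 and 1.26 kb, and the +644.9 kb interval at 1.74 and 2.74 kb.

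A shift was fitted for each interval as the CREBBP-KO minus WT difference of normal scores, that is, of ranks placed on a normal scale with an SD of 1. Every library is put on the same scale, so a shift is relative to the other fitted intervals. A change common to all intervals would not show, and a median near 0 over all of them follows in part from the scale. Of the 15 shared intervals, 10 had a fold of at least 5 in all libraries of a genotype and entered the filtered fit. Of these, the -70.6 and +644.9 kb intervals passed through their CREBBP-KO folds alone and the +398.1 kb interval through its WT folds alone. The +398.1 kb interval had a shift of -3.21 ± 0.35 (SE) and the +644.9 kb interval 1.99 ± 0.28. The -70.6 kb interval followed at 0.93 ± 0.32 and the WNT5A inner-start interval at 0.50 ± 0.16. On the lower side the +133.4 kb interval stood at -0.92 ± 0.26, the +263.8 kb interval at -0.44 ± 0.25, the -20.3 kb interval at -0.44 ± 0.17 and the canonical-start interval at -0.31 ± 0.17. The median shift of the 10 was -0.28, beside 0.02 over all fitted intervals, of which 18.7% were lower and 18.6% higher at an adjusted p under 0.05 in limma. In the fit over all shared intervals the median of the 15 was -0.15.

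The threshold of the rule is a distance. The last interval outside on the low side (chr3:55361584-55363647) lay 2.1 kb beyond the window, with folds of 5.32, 4.70 and 5.14 in WT and 7.62, 8.73 and 8.39 in CREBBP-KO libraries. The first inside (from 55403164) was a single CREBBP-KO peak with a fold of 3.05. On the high side, the CCDC66 promoter was the last inside, 10.7 kb from the edge, and the first outside (chr3:56590376-56592066) lay 21.3 kb beyond it with folds from 2.87 to 3.73 over the 6 libraries.

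The summit windows of the 15 shared intervals had a median GC of 48.5% against 47% over 52167 shared windows of the same 200 bases. Motifs were searched on both strands. AP-1 (TGANTCA) was found in 0 of the 15 windows and 7.90% of all, and TEAD (GGAATG) in 2 (13.3%) and 10.7% of all. KLF/SP (GGGCGG), CEBP (TTGCNNAA) and the E-box (CACGTG) each matched 1 of 15. CRE (TGACGTCA) and ETS (CCGGAAG) matched none, with 0.0997% and 1.84% of all windows. TCF/LEF (CTTTGAT) and RUNX (TGTGGTT) matched none, with 2.41% and 3.69% of all. FOX (TGTTTAC) matched none, with 3.21% of all. The letters AGATAA, searched for GATA factors, matched none, with 9.81% of all. With 15 windows these shares are coarse. Over whole intervals, AP-1 occurred 0.426 times per kb in the locus and 0.458 times per kb in all shared intervals, and TEAD 0.473 and 0.616 times. Letters in a window are a description and do not say that a factor binds there.

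The promoter pattern of WNT5A was compared with that of 11707 protein-coding genes by the Euclidean distance over the 6 normal scores, using its inner-start interval. The nearest were ANO6, a phospholipid scramblase, at a distance of 0.273, then ZNF608 at 0.274, SEPHS2, an enzyme of selenium metabolism, at 0.283, FMN2, an actin-nucleating formin, at 0.298, and INTS14, an Integrator subunit, at 0.303 with an interval shared with SLC24A1. The median distance was 1.78. ANO6, the closest, had folds of 14.0, 12.6 and 11.7 in WT and 19.5, 21.0 and 18.5 in CREBBP-KO libraries.

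Other genes of noncanonical Wnt signalling had promoter shifts in both directions. Of 36 listed genes, 27 were tested, and 1 was lower, 8 were higher and 18 did not pass. Over all 10090 promoter intervals, 8.34% were lower and 26.7% higher, so the upward share of the list was near that of all promoters. With ranks by −log10 p 5 were higher. Of the 27, 3 passed the fold minimum through CREBBP-KO libraries alone, 2 of which, DAAM1 and PRICKLE1, were among the 8. The median shift of the 27 was 0.22, beside 0.02 over all 34864 fitted intervals, of which 10090 were promoter intervals. As promoter intervals were more often higher than lower, these medians are of unlike sets and nothing is read from their difference. Among receptors, ROR1 rose from 7.16 ± 0.692 to 12.6 ± 2.03 in fold (SD, n = 3; shift 0.91 ± 0.21 SE, limma adjusted p = 0.00223). ROR2, a well-known WNT5A receptor, had promoter folds of 2.62 and 2.61 in the first and second WT libraries, no peak in the third, and 14.8, 17.8 and 16.3 in CREBBP-KO libraries. As it lacked a peak in 1 library it was not tested. RYK had a shift of 0.22 ± 0.17 and did not pass (limma adjusted p = 0.302).

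Further along the pathway, DAAM1, a formin downstream of Dishevelled, rose from a fold of 4.41 ± 0.366 to 7.91 ± 0.874 (SD, n = 3; shift 1.30, limma adjusted p = 0.00129). Since it passed the fold minimum through CREBBP-KO libraries alone, that minimum favoured a rise, and without it the shift was 0.90 (limma adjusted p = 0.00408). The small GTPases CDC42 (shift 0.85) and RHOA (shift 0.81) also rose, with limma adjusted p = 0.000626 and 0.00174. MAP3K7, the kinase TAK1, fell by 0.75 in shift (limma adjusted p = 0.00178), with folds of 16.6, 19.4 and 20.5 in WT and 14.1, 13.4 and 16.0 in CREBBP-KO libraries.

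**Figure D4:**
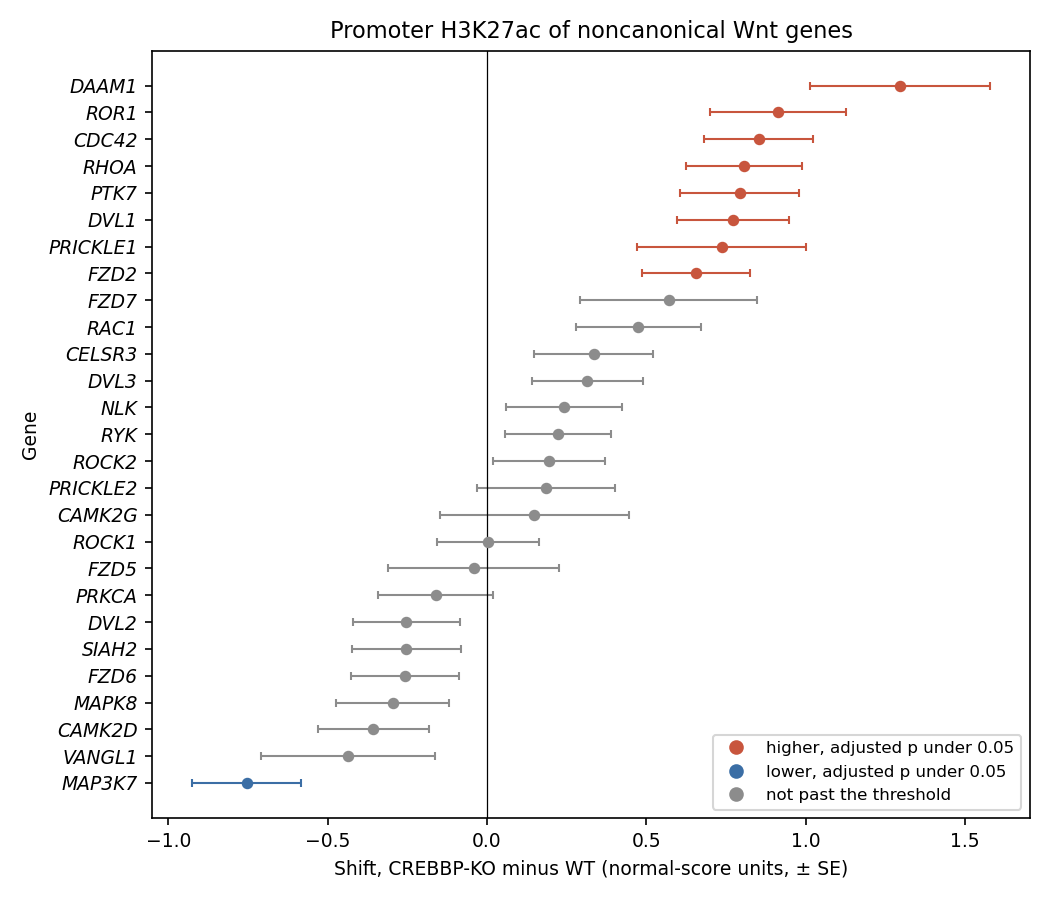
Shift of the promoter interval, CREBBP-KO minus WT, in normal-score units (x axis, points with SE) for the 27 tested noncanonical Wnt genes (y axis). DAAM1 has the highest shift, at 1.30, and MAP3K7 the lowest, at -0.75.

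Of 18 other Wnt ligands, 11 had no promoter peak in any library and 3 were tested. WNT3 rose from a fold of 8.26 ± 0.889 to 13.5 ± 1.48 (SD, n = 3; limma adjusted p = 0.00461). WNT5B, the closest paralogue of WNT5A, had folds of 16.5 ± 1.53 and 20.5 ± 2.30 (SD, n = 3) and did not pass (limma adjusted p = 0.451). Of 16 genes of Wnt secretion and inhibition, 7 were tested. The secreted inhibitor DKK2 fell by 0.98 in shift and DKK3 rose by 0.74 (limma adjusted p = 0.0043 and 0.0471). DKK2 had folds of 14.7, 14.8 and 8.02 in WT and 7.16, 8.23 and 7.70 in CREBBP-KO libraries, so the third WT library lay within the CREBBP-KO range. Its call was kept whichever library was left out, at limma adjusted p up to 0.0416. The call of DKK3 was lost without the first WT library (adjusted p = 0.21) or any 1 CREBBP-KO library, and with ranks by −log10 p those of WNT3 and DKK3 were lost. DKK3 also passed the fold minimum through CREBBP-KO libraries alone, and without that minimum it did not pass the test (limma adjusted p = 0.0775).

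The partners of ERC2 at the presynaptic active zone were partly marked in these cells. Of 24 listed genes, 10 had no promoter peak, 9 were tested, 2 were lower and 3 higher, beside 8.34% and 26.7% of all promoter intervals. With ranks by −log10 p 1 was higher. ERC1, the widely expressed paralogue of ERC2, had a strong promoter peak, at 16.4, 19.4 and 17.6 in WT and 13.6, 15.5 and 17.6 in CREBBP-KO libraries. Its shift of -0.52 ± 0.17 (SE) passed at a limma adjusted p = 0.0202, which was not kept without the second WT library (adjusted p = 0.102), the first CREBBP-KO library (0.0943) or the second (0.0571). RAB3A, a vesicle GTPase, fell by 0.65 in shift (limma adjusted p = 0.00275). UNC13B, a vesicle-priming factor, STX1A, a syntaxin of the fusion machinery, and SYT1, a calcium sensor of vesicle release, rose by 0.94, 0.77 and 0.53 in shift (limma adjusted p = 0.00861, 0.00395 and 0.0306), and the call of SYT1 was lost without any 1 library other than the first WT library, at adjusted p up to 0.104. With ranks by −log10 p the calls of UNC13B and SYT1 were lost. UNC13B passed the fold minimum through CREBBP-KO libraries alone, and without that minimum its shift was 0.62 (limma adjusted p = 0.0174).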

How the data were processed

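H3K27ac ChIP-seq peak lists of 3 WT and 3 CREBBP-KO libraries were used. The authors aligned reads to hg38 in the nf-core ChIP-seq pipeline 2.0.0 with BWA and ran MACS2 on every library separately for narrow peaks. They ran the pipeline on all reads and again on downsampled reads. From which run the lists come, and the input used as control, are not given in the sources used here. The deposited fold is a linear ratio of peak height over local background, and the deposited significance is given as −log10 of the p-value and of the q-value, with a smallest −log10 q of 1.3. The depth of each library is unknown and no counting intervals were computed.

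Peaks were merged over the 6 lists. Normal scores of fold ranks were fitted with limma 3.58.1 (R 4.3.3, lmFit, eBayes with trend), CREBBP-KO minus WT, over the 34864 intervals with a peak in all 6 libraries and a fold of at least 5 in all 3 libraries of a genotype. P-values were adjusted by Benjamini-Hochberg over all of them, and 0.05 was the threshold. As nothing in the labels says that the libraries came from separate cultures, p-values measure only the spread between these samples, which may be technical. On simulated data for this fit of 34864 intervals, 84% of 50 planted shifts of 2 and 32% of 50 shifts of 1 were recovered, with 0 false calls. Apart from the planted shifts the simulation held no genotype difference, whereas in the data 18.7% of intervals were called lower and 18.6% higher. These rates therefore do not describe the fit to the data. Promoter intervals overlapped the stretch from 1 kb before to 1 kb after a start of a protein-coding transcript (GENCODE release 44). Where several did, the one of highest mean score was taken. Python 3.11.15, pandas 2.3.3 and scipy 1.17.1 were used.

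The locus, the gene lists and the tests were chosen with earlier results of these data known. Locus intervals named with values were the one with the most negative shift, those at gene starts, those with a peak in all libraries of 1 genotype and none of the other, the 6 of highest mean percentile and up to 6 without overlap in each direction. The +4.3 kb interval is among those at gene starts. The remaining shared intervals were added after their values were seen. From each gene list, up to 4 genes of largest shift past the threshold in each direction are named, with ROR1, ROR2, RYK and ERC1 always. WNT5B was named after its value was seen. The deposited score and the input libraries were not used. The alternatives were stricter peaks, equal list lengths, ranks by −log10 p, other flanks, other merging, other limma settings, a replicate block and each library left out.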

Additional observations from a re-analysis of the deposited data

How the results depend on the processing

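The +398.1 and +644.9 kb intervals kept the direction of their height difference under each alternative that gave a value. Both were named for their shifts in these same libraries, so a kept direction follows in part from that choice and is no independent check. No value was had for either with peaks of −log10 q of at least 5, nor for the +398.1 kb interval with equal list lengths, since a library then lacked the peak. With libraries left out in turn, their percentile differences ranged from -80.2 to -57.5 and from 42.4 to 45.4. The count of locus intervals lower without overlap, 1 in the report, was 3 with peaks of −log10 q of at least 5 and with equal list lengths, 2 with ranks by −log10 p and with 200 kb flanks, and, in alternatives added after the data were seen, 4 with ranks among shared intervals and 2 by the deposited fold. It ranged from 1 to 6 with single libraries left out, being 6 without the third WT library, 5 without the second CREBBP-KO library and 2 without the first WT library. The count higher, 3 in the report, was 2 with peaks of −log10 q of at least 5 and with 500-base windows around summits, 6 with 200 kb flanks and 4 whichever library was left out. The difference in locus peaks per library was -3.67 with equal list lengths and -0.667 to 1.5 with libraries left out. The difference in covered bases was -3348 with equal lengths, 735 with 200 kb flanks and -1875 to -63.8 with libraries left out. Of the intervals in the genome-wide fit, 6533 were lower and 6472 higher. With libraries left out these were 5324 to 6324 and 4902 to 6788. Over the 4 pathway lists, 13 genes were higher, 7 with ranks by −log10 p and 10 to 15 with libraries left out, and the 4 lower became 3 to 4. The lists held 27, 3, 7 and 9 tested genes. Of all promoter intervals in the main fit 26.7% were higher and 8.34% lower, and nothing is read from the list counts. The calls of DKK3, SYT1 and UNC13B were lost with ranks by −log10 p (limma adjusted p = 0.255, 0.627 and 0.216), that of WNT3 likewise (0.0602), and that of ERC1 without the trend (0.0679). DKK3 was also lost without the filter on fold (0.0775) and without the first WT library or any 1 CREBBP-KO library. The causes were not tested.

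Replicate numbers did not pair the libraries, as same-numbered libraries had correlations of their deviations of 0.0108, 0.0144 and 0.0284. With the replicate number as a block, 6566 intervals were lower and 6514 higher. The depth of each library is unknown, so a missing peak cannot be told apart from one under the detection limit of a library.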
